A study of Mus musculus with 15 samples.

Results

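The genes described here encode the receptors and ligands of platelet-derived growth factor (PDGF): the receptors Pdgfrb and Pdgfra, the receptor-like gene Pdgfrl, and the ligands Pdgfa, Pdgfb, Pdgfc and Pdgfd. They are a named set of 7 genes, taken by gene name from 55536 genes in the deposited tables, and all 7 were found and passed the filter on low values in every comparison. In GRCm38, Pdgfrb lies on chromosome 18 from 61045150 to 61085061, Pdgfra on chromosome 5 from 75152292 to 75198215 and Pdgfrl on chromosome 8 from 40926212 to 40990785. Pdgfa lies on chromosome 5 from 138976014 to 138997370 and Pdgfb on chromosome 15 from 79995874 to 80014977. Pdgfc lies on chromosome 3 from 81036416 to 81214040 and Pdgfd on chromosome 9 from 6168584 to 6378850. The data are normalized read counts of poly(A) RNA from whole skeletal muscle of male mice aged 2 months, with 5 samples in each of 3 groups. The control group is labelled wild type, the knockout group PdgfrB Knock Out and the last group PdgfrB D489V, and the series describes the alleles as a knockout and a constitutively active receptor, both specific to myogenin. The labels name no Cre line, muscle, strain or litter and give no allele for the controls beyond wild type. Myogenin marks differentiating muscle cells, so the muscle's other cells, among them vessel, connective tissue and nerve cells, are outside the labelled cell type and add their RNA to every sample. Nothing in the labels says that numbered samples were separate animals. Each p-value therefore sets a group difference against the spread between these samples, which may not be the spread between animals.

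PDGF ligands are secreted as dimers that bring receptor chains together, and the paired receptor chains then phosphorylate each other and recruit signalling proteins. In most tissues endothelial cells release the Pdgfb product, and the pericytes and smooth muscle cells around vessels (mural cells) carry Pdgfrb. Pdgfra is the standard marker of fibro-adipogenic progenitors, the connective tissue cells of muscle. Pdgfc and Pdgfd encode ligands that must be cut by proteases before they bind a receptor, and the Pdgfrl product resembles part of the extracellular side of the receptors.

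The sum of normalized counts lay between 29815559 and 36489777 per sample. All 10 muscle fibre markers were present, with a summed value of 5384005 to 7348747. Knockout replicate 3, labelled male, held 3165 normalized counts of Xist, the RNA of the inactive X chromosome, against at most 101 in any other sample. RNA of the Y-linked genes Eif2s3y and Uty was present in all 15 samples but at uneven levels. Eif2s3y ran from 286 to 2113 normalized counts around a mean of 1570, and Uty from 80 to 716 around a mean of 395. Knockout replicate 3 also had the lowest summed fibro-adipogenic progenitor markers, at 58705 against 100467 to 181249 in the other 14 samples. The differences of the PDGF genes that involve the knockout group are therefore given with and without it. In bulk RNA, fewer cells of a type and less RNA per cell cannot be told apart.

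Levels can be set against each other once they are divided by transcript length (normalized count per kb of the longest protein-coding transcript). In controls Pdgfa was highest, at 689 ± 162 per kb (SD, n = 5), and Pdgfb came next at 542 ± 16.4 (SD, n = 5). These 2 ligands did not differ beyond their spread, since Pdgfa ran from 506 to 890 and Pdgfb from 522 to 558. Pdgfrb followed at 323 ± 13.4 per kb (SD, n = 5), apart from both neighbours in the order. Pdgfrl, at 112 ± 13.1, and Pdgfra, at 94.2 ± 7.56 (SD, n = 5 each), overlapped, and their order turned when all annotated exons were used as the length (55.3 and 64.2 per kb). Pdgfd stood at 45 ± 6.47 per kb and Pdgfc was lowest at 13 ± 2.1 (SD, n = 5 each). Among 14948 genes tested in all comparisons, Pdgfa lay at percentile 86.7 of control levels per kb and Pdgfc at percentile 12.2.

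**Figure D1:**
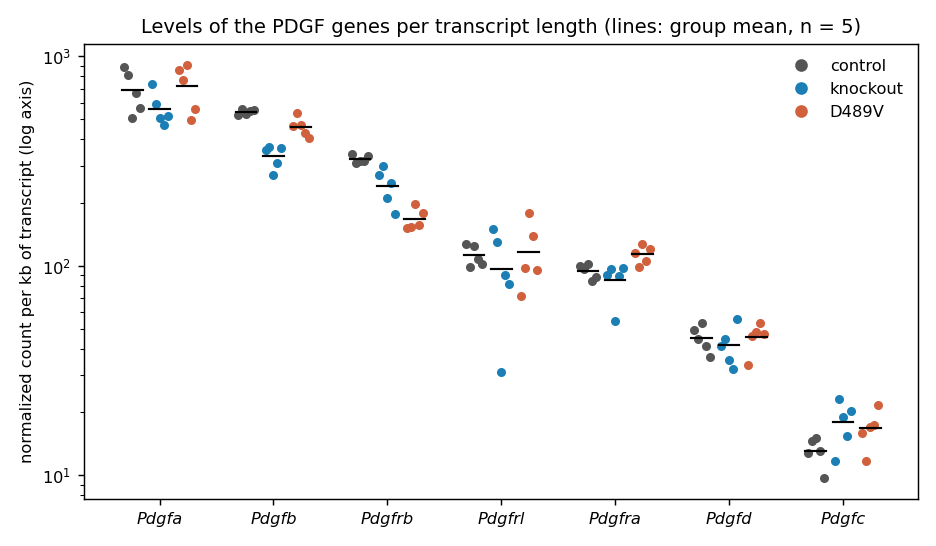
Normalized count per kb of transcript (log axis) for the 7 PDGF genes, ordered by the control mean, with a point for each sample and a line for the mean of each group of 5. In controls the genes run from Pdgfa at 689 per kb to Pdgfc at 13 per kb, and the Pdgfrb means are 323 in controls, 241 in knockout and 167 in D489V.

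In D489V Pdgfrb ran from 151 to 196 per kb, above Pdgfra at 98.6 to 127 but overlapping Pdgfrl at 71.7 to 178. How near Pdgfrb lay to Pdgfrl depends on the length used. With all annotated exons the D489V means were 165 per kb for Pdgfrb and 57.5 for Pdgfrl. The ratio of Pdgfrb to Pdgfra per kb was 3.11 to 3.8 in controls, 1.82 to 3.87 in knockout and 1.32 to 1.55 in D489V. Every D489V sample therefore lay below every sample of the other groups. The ratio of Pdgfb to Pdgfrb per kb was 1.53 to 1.81 in controls and 2.27 to 3.51 in D489V, again without overlap. In knockout it was 1.23 to 1.31 in replicates 1 to 4 and 2.07 in replicate 5. These ratios are given as values without a test. Their size depends on the length used: with all annotated exons the control means were 320 per kb for Pdgfrb and 64.2 for Pdgfra. The order of the samples within a ratio does not depend on it.

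Over the set, 0 of 7 genes passed in knockout against control, where 0.00656% of 15234 genes did (limma, adjusted p under 0.05), and 2 had an unadjusted p under 0.05 (15.1% of all genes). Groups did not overlap for 2 of the 7, Pdgfrb and Pdgfb, against 2.24% of all genes. In D489V against control 1 of 7 passed, Pdgfrb, which was lower, against 0.0587% of 15339 genes (0.0326% lower). Its groups alone did not overlap (2.16% of all genes), and 3 of 7 had an unadjusted p under 0.05 (9.43%). The gene had been named for this contrast by the alleles themselves. In knockout against D489V 2 of 7 passed, Pdgfrb higher by 0.51 (0.56 without knockout replicate 3, limma adjusted p = 0.0318) and Pdgfb lower. In that comparison 20.8% of 15299 genes passed, so a count of 2 is near the background. Groups did not overlap for 2 of 7, Pdgfra and Pdgfb, against 13.9%, and 3 had an unadjusted p under 0.05 (37.7%). The Pdgfrb call there was lost without knockout replicate 1 (limma adjusted p = 0.0543), D489V replicate 1 (0.0685) or D489V replicate 2 (0.0669) and in a fit blocked on replicate number (0.0643). Over all alternatives its adjusted p ran from 0.0144 to 0.0685. The median log2 difference of the 7 genes was -0.28, 0.01 and -0.33 in the 3 comparisons, against 0.01, 0.00 and 0.00 over all genes. The first and last were -0.07 and -0.08 without knockout replicate 3. The comparisons share samples, so their values are not independent of each other.

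**Figure D2:**
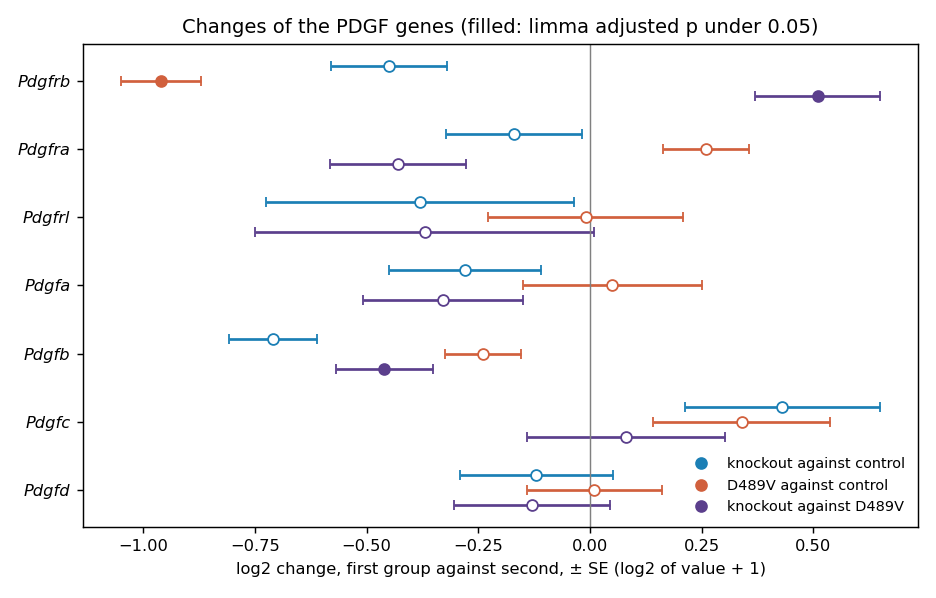
Log2 change with its SE for the 7 PDGF genes in the 3 comparisons, with filled points for a limma adjusted p under 0.05. The filled points are Pdgfrb in D489V against control (-0.96) and in knockout against D489V (0.51), and Pdgfb in knockout against D489V (-0.46).

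Pdgfrb, the gene targeted in both mutant groups, lay below every control in every mutant sample. Controls 1 to 5 held 1848, 1673, 1720, 1716 and 1811 normalized counts of Pdgfrb. Knockout samples 1 to 5 held 1475, 1628, 1138, 1339 and 958. D489V samples 1 to 5 held 820, 828, 1062, 849 and 970, so that 4 of 5 knockout samples lay above every D489V sample. The knockout mean was 74.6% of control and the D489V mean 51.7%, and in neither comparison did the groups overlap. On the log2 scale the difference was -0.45 in knockout (SE 0.13, limma adjusted p = 0.294) and -0.96 in D489V (SE 0.0897, limma adjusted p = 0.00168). Pdgfrb thus fell in D489V by the test over all genes and did not pass it in knockout. The knockout difference was -0.40 without knockout replicate 3 (limma adjusted p = 0.468, and 0.149 to 0.586 over all alternatives). The knockout samples were also the most spread, with a coefficient of variation of 20.3% against 4.16% in controls and 11.7% in D489V. Replicate 5 was lowest, at 958, and replicate 2 highest, at 1628. Csf1r, the next tested gene on the chromosome and the gene of a related macrophage receptor, had log2 differences from control of -0.18 in knockout and -0.25 in D489V, with overlapping groups in both (limma adjusted p = 0.729 and 0.768).

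Pdgfrb was also set beside mural cell markers. The 15 mural markers, which do not include Pdgfrb, summed to 28538 to 35251 in controls, 25909 to 29492 in knockout and 30878 to 36984 in D489V, and none was at 0. For each sample the mean log2 value of these markers was subtracted from that of Pdgfrb. The difference was 0.58 to 0.86 in controls, 0.09 to 0.87 in knockout and -0.54 to -0.18 in D489V. Relative to the markers Pdgfrb differed between D489V and control by -1.09, against -0.96 without the markers (exact two-sided permutation p = 0.00794, the smallest possible, adjusted p = 0.0143 over 9 such tests). In knockout the relative difference from control was -0.16 (exact permutation p = 0.325, adjusted p = 0.357), and -0.15 without replicate 3. It was -0.04 without knockout replicate 5 and -0.24 without knockout replicate 2 (adjusted p = 0.651 and 0.122). Between knockout and D489V it differed by 0.94 (exact permutation p = 0.00794, adjusted p = 0.0143), and by the same 0.94 without knockout replicate 3. In knockout against control, 14 of 15 mural markers were lower by the fit (48.5% of all genes) and 0 passed limma's threshold. Of the 15, 7 had an unadjusted p under 0.05 (15.1% of all genes). Without knockout replicate 3 the count was 5, and the share of all genes in that fit is not given here.

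**Figure D3:**
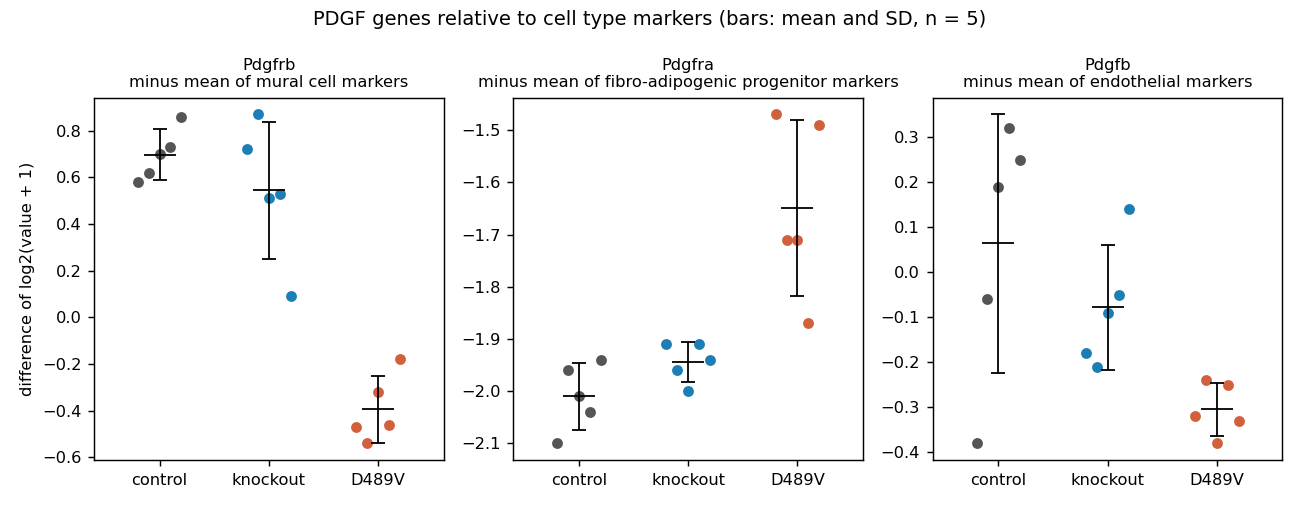
Difference between log2(value + 1) of a PDGF gene and the mean of a marker list in each sample, for Pdgfrb with mural cell markers, Pdgfra with fibro-adipogenic progenitor markers and Pdgfb with endothelial markers; bars are the mean and SD of 5 samples. For Pdgfrb all D489V samples, at -0.54 to -0.18, lie below all others, and for Pdgfra all D489V samples, at -1.87 to -1.47, lie above all others.

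Pdgfra had its highest values in D489V muscle. Controls held 681, 661, 697, 578 and 601 normalized counts in replicates 1 to 5. Knockout replicates 1 to 5 held 617, 655, 371, 607 and 662. D489V replicates 1 to 5 held 781, 674, 870, 716 and 819. Every D489V sample lay above every knockout sample, and 4 of 5 lay above every control. The log2 difference of D489V from control was 0.26 (SE 0.0958, limma adjusted p = 0.414, exact two-sided permutation p = 0.0238). Knockout against D489V it was -0.43 (SE 0.153, limma adjusted p = 0.0628). Neither passed over all genes. The second difference was -0.28 without knockout replicate 3, the lowest sample at 371 (limma adjusted p = 0.0722). Between knockout and control it was -0.17 (SE 0.153, limma adjusted p = 0.578), and -0.02 without that sample.

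Relative to fibro-adipogenic progenitor markers, Pdgfra was higher in D489V. The 15 markers summed to 126669 to 161466 in controls, 58705 to 181249 in knockout and 100467 to 139140 in D489V, and none was at 0. The difference of log2 values was -2.10 to -1.94 in controls, -2.0 to -1.91 in knockout and -1.87 to -1.47 in D489V. D489V differed from control by 0.36 and knockout from D489V by -0.30 (exact two-sided permutation p = 0.00794 and adjusted p = 0.0143 for both). Knockout replicate 3 lay within its group on this scale, at -2.0, and without it the second difference was -0.28. Knockout differed from control by 0.07 (exact permutation p = 0.0952, adjusted p = 0.122), or 0.08 without replicate 3. Of the marker list, 0 of 15 genes passed limma's threshold in knockout against control and in D489V against control. In these comparisons 1 and 5 of the 15 had an unadjusted p under 0.05, against 15.1% and 9.43% of all genes.

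Pdgfrl varied more between samples than the other receptors. Controls held 152 to 196 normalized counts, knockout samples 48 to 232 and D489V samples 111 to 276, and all groups overlapped. Its log2 differences from control were -0.38 in knockout (SE 0.345, limma adjusted p = 0.583) and -0.01 in D489V (SE 0.218, limma adjusted p = 0.991). The lowest value, 48, was that of knockout replicate 3, and without this sample the knockout difference was -0.02.

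Among the ligands, Pdgfb showed the clearest difference. Controls 1 to 5 held 1537, 1642, 1552, 1613 and 1635 normalized counts. Knockout replicates 1 to 5 held 1052, 1088, 793, 914 and 1076. D489V replicates 1 to 5 held 1372, 1576, 1375, 1259 and 1194. The knockout samples lay below all samples of both other groups, and 4 of 5 D489V samples lay below every control. Control values were close together, with a coefficient of variation of 3.03%. Only 0.469% of 12144 genes with a mean of 50 or more varied less among the controls. Pdgfrb, at 4.16%, was also among the steadiest (1.58% varied less).

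The Pdgfb mean in knockout was 61.7% of control, a log2 difference of -0.71 (SE 0.0979). Its unadjusted p of 1.2e-05 in limma was the second smallest among 15234 genes, but the adjusted p was 0.0787, just short of the threshold of 0.05. The exact permutation p was 0.00794, the smallest possible. With upper-quartile rescaling of the samples, quantile normalization or all 15 samples in a single fit it passed (limma adjusted p = 0.0292, 0.0311 and 0.0131). It also passed without knockout replicate 2 (0.0448), and over all alternatives the adjusted p ran from 0.0131 to 0.297. The difference was -0.63 without knockout replicate 3 (limma adjusted p = 0.0636).

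In D489V the Pdgfb mean was 84.9% of control, with a log2 difference of -0.24 (SE 0.0849, limma adjusted p = 0.386, exact permutation p = 0.0238). Pdgfb was lower in knockout than in D489V by the test over all genes, with a log2 difference of -0.46 (SE 0.109, limma adjusted p = 0.0152), or -0.39 without knockout replicate 3 (0.0284).

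Endothelial markers had low values in the knockout samples too. All 12 were lower in knockout than in control by the fit, with a median log2 difference of -0.51 against 0.01 over all genes tested. Of the 12, 0 passed limma's threshold, 9 had an unadjusted p under 0.05 (15.1% of all genes) and 3 did not overlap between groups (2.24%). Their summed values were 19153 to 28876 in controls, 12917 to 18844 in knockout and 21947 to 26762 in D489V, and none was at 0. Relative to these markers, Pdgfb differed between knockout and control by -0.14 (exact two-sided permutation p = 0.357, adjusted p = 0.357), and by -0.14 without knockout replicate 3. It was -0.25 without control replicate 1 and -0.08 without control replicate 4 (adjusted p = 0.0612 and 0.603). The same measure differed between D489V and control by -0.37 (exact permutation p = 0.0476, adjusted p = 0.0714), and by -0.48 without control replicate 1 (adjusted p = 0.0238). Between knockout and D489V it differed by 0.23 (exact permutation p = 0.00794, adjusted p = 0.0143), the opposite sign to the difference in Pdgfb itself, and by 0.23 without knockout replicate 3. Platelets also carry PDGF, and the summed values of 7 platelet markers overlapped between groups, at 165 to 212 in controls, 83 to 238 in knockout and 196 to 287 in D489V, with Gp1bb at 0 in all samples. The part of platelet RNA in the Pdgfb values was not tested.

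Pdgfa was abundant and variable. It held 1042 to 1834 normalized counts in controls, 962 to 1508 in knockout and 1018 to 1875 in D489V. Its log2 differences from control were -0.28 in knockout (SE 0.17, limma adjusted p = 0.419) and 0.05 in D489V (SE 0.201, limma adjusted p = 0.953). Within groups the samples were far apart: controls 1 and 2 held 1834 and 1674 and D489V replicates 1 to 3 held 1769, 1584 and 1875, while the other controls and D489V samples held 1018 to 1380. An antisense gene, 6330403L08Rik, overlaps Pdgfa over 813 of its 3119 exonic bases and held 449 to 839 normalized counts. The library kit keeps strand, but the sources used here do not give the counting setting, so reads in the shared part may not be fully separated. Over the 15 samples the deviations of both genes from their group means had a Pearson r of -0.71.

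Pdgfc and Pdgfd were low. Pdgfc held 34 to 53 normalized counts in controls, 41 to 81 in knockout and 41 to 76 in D489V. In both mutant groups 4 of 5 samples lay above every control, with log2 differences of 0.43 (SE 0.218, limma adjusted p = 0.36) and 0.34 (SE 0.198, limma adjusted p = 0.632). Pdgfd held 115 to 166 in controls, 100 to 174 in knockout and 105 to 166 in D489V, and its log2 differences from control were -0.12 (SE 0.171, limma adjusted p = 0.735) and 0.01 (SE 0.152, limma adjusted p = 0.986). Between knockout and D489V the log2 differences were -0.37 for Pdgfrl, -0.33 for Pdgfa, 0.08 for Pdgfc and -0.13 for Pdgfd (limma adjusted p = 0.505, 0.194, 0.813 and 0.603), and all 4 genes overlapped between the groups. These were -0.01, -0.30, 0.05 and -0.08 without knockout replicate 3. Against control, leaving out that sample gave -0.25 for Pdgfa, 0.39 for Pdgfc and -0.07 for Pdgfd (limma adjusted p = 0.572, 0.502 and 0.883).

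**Figure D4:**
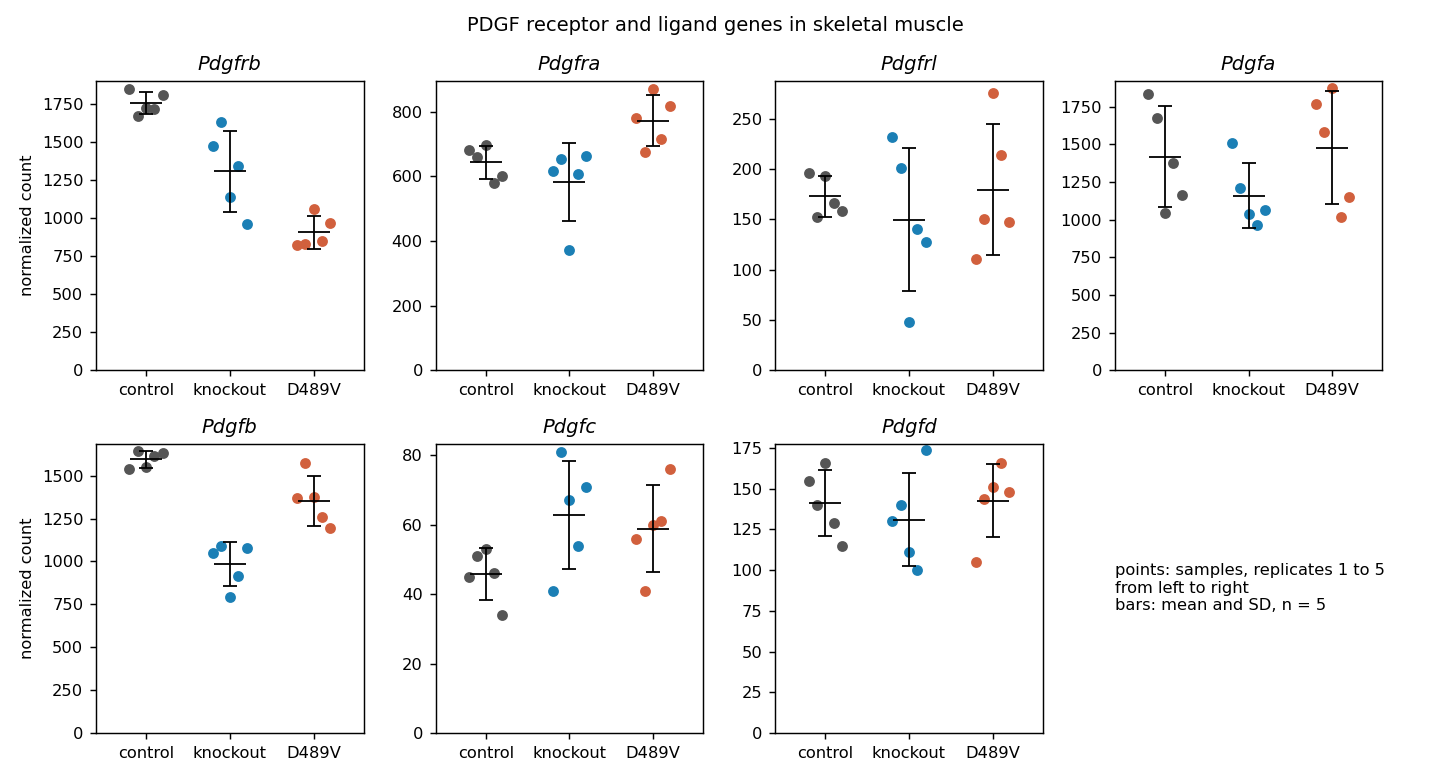
Normalized counts of the 7 PDGF genes in each sample (linear axes from 0), with the mean and SD of 5 samples per group. Pdgfrb is below every control in all mutant samples, Pdgfb is lowest in the 5 knockout samples (793 to 1088), and the groups overlap for Pdgfrl, Pdgfa, Pdgfc and Pdgfd.

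Within groups the 7 genes varied mostly apart from each other. Across the 15 samples, with group means subtracted, the highest Pearson r among the 21 pairs was 0.75 for Pdgfra and Pdgfrl, which was 0.25 without knockout replicate 3. Pdgfrb and Pdgfrl had an r of 0.61, or 0.65 without it. Pdgfb and Pdgfrb, ligand and receptor, had an r of 0.07, and -0.17 without it, and Pdgfra and Pdgfc 0.18, or 0.61 without it. All such values describe 15 samples that share their normalization and are given without a test.

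The genes most like each member on that measure, among 12143 with a mean of 50 or more, were as follows. Each was picked as among the highest of that many over 15 samples, so its r is high in part by selection. For Pdgfrb they were S1pr3 (r 0.89), a receptor for sphingosine 1-phosphate, Heyl (0.87), a transcriptional repressor downstream of Notch and a mural marker in the list above, Mapk8ip1 (0.87), Scg3 (0.85) and Srgap3 (0.85). With the mural marker list as a whole the r of Pdgfrb was 0.29 (0.19 without knockout replicate 3), against 0.64 with the satellite cell and 0.59 with the tenocyte markers. For Pdgfra they were Egfr (0.96), Eif2s3y (0.95), Uty (0.92), Dcn (0.92) and Colec12 (0.91). Without knockout replicate 3 the Y-linked genes Eif2s3y and Uty dropped to 0.76 and 0.63, and Dcn and Colec12 to 0.76 and 0.66. Egfr, the receptor for epidermal growth factor, stood at 0.89 without that sample. For Pdgfrl they were Crispld2 (0.96), Col11a2, Pcsk5 and Olfml3 (0.95 each) and Fkbp10 (0.94), among them a fibrillar collagen, a collagen-folding enzyme and a proprotein convertase. Pdgfrl deviated with the tenocyte markers (r 0.90, or 0.84 without knockout replicate 3). Both Pdgfrl and Pdgfra deviated with the fibro-adipogenic progenitor markers (0.87 and 0.89, or 0.66 and 0.67 without that sample).

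For Pdgfa the most like genes were Josd2 (0.97), Cyb5r3 and Ndufs5 (0.96 each), Tnni2 and Ndufb7 (0.95 each), where Tnni2 encodes fast-fibre troponin I and Ndufs5 and Ndufb7 encode subunits of respiratory complex I. Its r was 0.78 with the endothelial markers and -0.61 with the muscle fibre markers as a list. For Pdgfb they were Cyhr1 (0.89), Tmem223 (0.86), Ltbr (0.85), Fam213b and Gm15816 (0.82 each). Without knockout replicate 3 Tmem223, Ltbr and Fam213b stood at 0.77, 0.70 and 0.72, and Cyhr1 and Gm15816 at 0.89 and 0.80. The r of Pdgfb with the endothelial markers was 0.56, or 0.41 without knockout replicate 3. For Pdgfc they were 9330159M07Rik, Sestd1, Mid2, Anln and Slc1a1, with r from 0.82 down to 0.79. For Pdgfd they were Akap12, Mpp7, Trove2, Prickle2 and Tbc1d12, with r from 0.88 down to 0.84.

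Other genes of the pathway were taken from lists rather than by how they moved. Of 14 genes that process or bind the ligands, 0 passed in either comparison with control. At an unadjusted p under 0.05 there were 3 in knockout and 1 in D489V (15.1% and 9.43% of all genes). In knockout against D489V 3 of 13 tested fell, where 10.3% of all genes fell and 20.8% passed in either direction: Plat, the protease known to activate the Pdgfc product, by 0.52 on the log2 scale, and the coreceptors Nrp1 and Nrp2, which dropped by 0.44 and 0.57 (limma adjusted p = 0.0386, 0.0455 and 0.027). With knockout replicate 3 left out, 0 of 13 passed, where 15% of all genes did. In that fit 4 had an unadjusted p under 0.05, for which the share of all genes is not given here.

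Of 33 adaptors and effectors of the receptors, 0 passed in either comparison with control. Counts at an unadjusted p under 0.05 were 7 in knockout and 0 in D489V (15.1% and 9.43% of all genes). In knockout against D489V 7 were higher and 1 was lower by the test (10.5% and 10.3% of all genes). Ptpn11, the phosphatase that docks on the receptors, was 3924 to 4522 in knockout against 2135 to 3280 in D489V, a log2 difference of 0.73 (limma adjusted p = 0.00578). Mapk3, which encodes the kinase ERK1, was 575 to 798 in knockout against 929 to 1176 in D489V, a log2 difference of -0.59 (limma adjusted p = 0.00662). Without knockout replicate 3 the counts were 2 higher and 1 lower, where 15% of all genes passed in either direction and 7.87% were lower. Of 9 negative regulators, such as the ubiquitin ligase Cbl, 0 passed in any of the 3 comparisons. Counts at an unadjusted p under 0.05 were 0, 0 and 2 (15.1%, 9.43% and 37.7% of all genes).

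Of 16 early genes known to be induced by PDGF in cultured cells, 13 were tested against control. By the fit 12 of 13 were lower in knockout (48.5% of all genes), and 11 of 13 were higher in D489V (50.4% of all genes). In both comparisons 0 passed limma's threshold and 4 had an unadjusted p under 0.05, against 15.1% of all genes in knockout and 9.43% in D489V. The count of 4 in knockout was 1 without replicate 3, and the share of all genes in that fit is not given here. Junb was 1267 to 1661 in D489V against 543 to 1245 in controls (log2 difference 0.89, limma adjusted p = 0.221). In knockout against D489V 10 of 12 passed, all lower in knockout (10.3% of all genes), and 9 of 12 passed without knockout replicate 3 (7.87% of all genes). Fos was 301 to 695 in knockout and 1092 to 2295 in D489V, a log2 difference of -1.79 (limma adjusted p = 0.00155). Egr1 was 272 to 718 and 991 to 2085, with a difference of -1.65 (limma adjusted p = 0.00307), but controls ran from 430 to 2840 and overlapped both groups. These genes are induced by many stimuli besides PDGF, and their direction in these data was known when the list was chosen, so the count is not independent support.

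Of the 6 related receptor kinase genes, Kdr, the main endothelial receptor for VEGF, was 1260 to 2246 in knockout and 2371 to 3631 in controls without overlap (log2 difference -0.86, limma adjusted p = 0.227). In knockout against D489V Kdr and Flt1 fell by 0.87 and 0.36 on the log2 scale (limma adjusted p = 0.00778 and 0.0232), 2 of 5 tested against 10.3% of all genes. Against control 0 of 5 related receptors and 0 of 7 related ligands passed. At an unadjusted p under 0.05 there were 2 and 2 in knockout (15.1% of all genes) and 1 and 0 in D489V (9.43%). Of 7 related ligands, Vegfc and Csf1 fell in knockout against D489V by 1.22 and 0.43 (limma adjusted p = 0.0136 and 0.0491), and 2 of 7 is again set against 10.3%. All 12 endothelial markers were lower in knockout than in D489V by the test (10.3% of all genes), 10 of 12 without knockout replicate 3 (7.87%). In D489V against control 0 of 12 endothelial and 0 of 15 mural markers passed limma's threshold. Each list had 1 at an unadjusted p under 0.05 (9.43% of all genes). Of 15 mural markers 5 were lower and 1, Abcc9, higher in knockout than in D489V, against 10.3% and 10.5% of all genes. Without knockout replicate 3 these were 5 and 0, where 7.87% of all genes were lower and 15% passed in either direction. Kcnj8, a pericyte channel gene, was 449 to 518 in knockout, 681 to 794 in controls and 689 to 878 in D489V, with a log2 difference of -0.66 from D489V (limma adjusted p = 0.00215) and -0.59 from control (0.0787). Of 15 fibro-adipogenic progenitor markers 0 passed in knockout against D489V, with 3 at an unadjusted p under 0.05 (37.7% of all genes). Without knockout replicate 3, 1 of them was higher, where 15% of all genes passed in either direction.

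**Figure D5:**
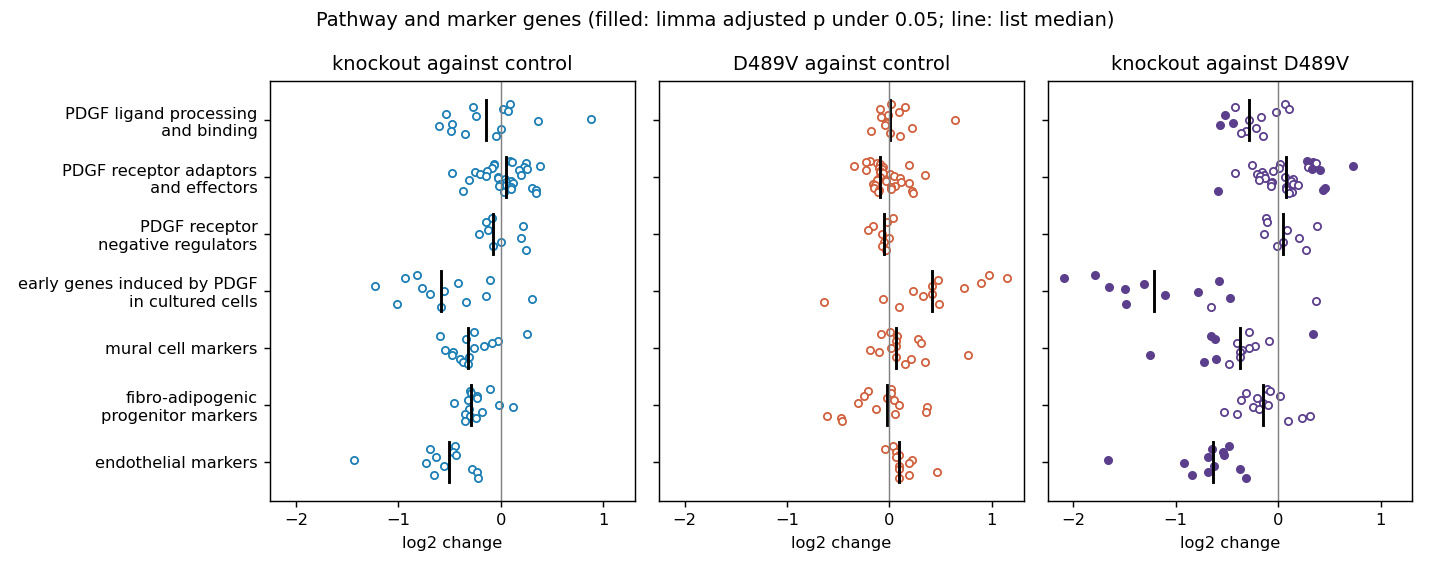
Log2 change of each tested gene in 4 pathway lists and 3 cell type lists in the 3 comparisons, with filled points for a limma adjusted p under 0.05 and a black line for the list median. Filled points appear only in knockout against D489V, where 10 of 12 early genes and 12 of 12 endothelial markers are lower in knockout.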

How the data were processed

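Per the deposited tables' names the values are normalized counts, and all are whole, so each was treated as a score and no count model was fitted. The submitters' processing notes list Trim Galore 0.6.0, cutadapt, FastQC, STAR 2.7.0e, DESeq2 1.26.0 and GRCm38, with no role or order, and the counting tool is not given in the sources used here. The 2 tables, whose control columns were identical, were joined by gene identifier. Positions and transcript lengths came from GENCODE M21 (GRCm38). Groups and replicate numbers came from the labels.

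Each comparison of 5 against 5 samples was fitted over all genes that reached 10 in 5 or more of its 10 samples. The fit used limma 3.58.1 in R 4.3.3 (eBayes with trend) on log2(value + 1), with Benjamini-Hochberg adjustment and a threshold of 0.05. It was also run on simulated counts drawn independently for each gene, with no effect shared across genes within a sample. That run cannot show how the fit behaves where samples differ in such shared effects. The log2(value + 1) scale understates changes of low genes. Exact two-sided permutation tests of 5 against 5 cannot give a p below 0.00794. Values relative to markers used scipy 1.17.1, adjusted over 9 tests. Alternatives changed the pseudocount, filter, scaling, variance model and samples. All 7 genes are named in each comparison. Of the 6 pathway lists the rule named called genes (at most 5) and the 3 largest changes without overlap, and for each member the 5 most correlated genes. Some genes of the lists are not reported here. Mural and fibro-adipogenic examples and Csf1r were chosen after their values were seen. The members and the lists, 17 besides the set, were chosen with earlier results of these data known.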

Additional observations from a re-analysis of the deposited data

Results flagged for a closer look

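One value lay far from its group: log2 Pdgfra in knockout replicate 3 was 8.54 against 9.25 to 9.37 in the other knockout samples, a gap of 0.850 of the group's range where 0.71 is the limit for 5 samples. Of 30 groups of values tested, 1 was far, and chance gives about 1.5. Relative to the fibro-adipogenic progenitor markers the same sample stood at -2.0, the low end of a knockout range that ended at -1.91. The cause of its low value was not tested.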

How the results depend on the processing

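Of 378 log2 changes of the 7 genes under alternatives, 352 kept direction and side of the threshold, 4 lost it, 6 passed it and 16 changed sign. All sign changes came from leaving out 1 sample: over those fits Pdgfrl, Pdgfa and Pdgfd in D489V against control ran from -0.18 to 0.14, -0.05 to 0.18 and -0.06 to 0.12, and Pdgfc in knockout against D489V from -0.04 to 0.22. In knockout against control the number of PDGF genes past the threshold was 1 (Pdgfb) with upper-quartile rescaling, with quantile normalization and with all 15 samples in 1 fit, and 0 to 1 over the fits without 1 sample. In knockout against D489V it was 1 with the replicate block and 1 to 2 without 1 sample, and Pdgfra passed with upper-quartile rescaling (limma adjusted p = 0.0494) and all 15 samples (0.0475). Pdgfb relative to the endothelial markers in D489V against control ran from -0.48 to -0.31 without 1 sample. With the mural list limited to its pericyte genes, chosen after seeing the data, Pdgfrb relative to it differed by -0.20, -1.0 and 0.81 in the 3 comparisons (adjusted p = 0.0714, 0.0143 and 0.0143). Over all genes the number called ran from 1 to 16 in knockout against control (16 with all 15 samples), from 1 to 26 in D489V against control (26 without D489V replicate 3) and from 1398 to 3686 in knockout against D489V (1398 without D489V replicate 1). Correlations between samples with equal replicate numbers were -0.21 to 0.24, -0.4 to 0.39 and -0.11 to 0.1 in the 3 comparisons, so no pairing was assumed. The block changed no call on the set other than that of Pdgfrb in knockout against D489V. What causes the differences between settings was not tested.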

Other observations

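Of 8 adipocyte markers 6 were lower in knockout than in D489V by limma, against 10.3% of all genes (Cfd, the gene of adipsin, with a log2 difference of -2.31, adjusted p = 0.00105), and their sum was 7991 to 38696 in controls, 14343 to 20024 in knockout and 23521 to 68969 in D489V. Of 8 Schwann cell markers 6 were lower in that comparison (10.3% of all genes), 3 without knockout replicate 3 (7.87%). D489V replicate 3 alone had a Schwann sum of 40987 against at most 12266 in the other samples. Against control, 0 of 8 passed for either list in either mutant group. At an unadjusted p under 0.05 there were 1 adipocyte and 5 Schwann markers in knockout (15.1% of all genes). In D489V there were 6 and 2 (9.43%).

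Of 8 satellite cell and myoblast markers 1 was higher in knockout than in D489V, Cdh15 (log2 difference 0.28, limma adjusted p = 0.0457), a count near the 10.5% of all genes that were higher. Without knockout replicate 3 the count was 0, where 15% of all genes passed in either direction. Against control 0 of 8 passed by limma, with 2 and 3 at an unadjusted p under 0.05 in knockout and D489V (15.1% and 9.43% of all genes). By limma 0 of 10 muscle fibre, 7 tenocyte, 6 lymphocyte and 2 tested platelet markers passed in any comparison. At an unadjusted p under 0.05 there was 1 muscle fibre marker in knockout against D489V (37.7% of all genes). There was also 1 tenocyte marker in D489V against control (9.43%). The lymphocyte markers summed to 1282 to 5235 in control replicate 5 and knockout replicates 3 to 5 and to at most 264 in the other samples. Their part in the values of the PDGF genes was not tested.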
